A study of Mus musculus with 55 samples.

Results

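Chromatin at 37 interferon-stimulated antiviral genes was followed in mouse bone marrow-derived macrophages. Each gene was represented by the open chromatin regions assigned to it in the deposited tables, whose centre lay within 100 kb of its start site, and the signals of those regions were summed per gene. The genes were chosen by name and not by a cut on their signal, but with earlier results of these data known. All 37 were found, none was absent, and together they held 170 of the 97113 regions, against 18490 genes named in the tables. All 37 also passed the filter on low values, which left 16710 genes for H3K27ac and 15971 for p300. Some windows overlap, so that their tags were counted more than once: 55 of the 170 windows of 1000 bp overlapped another, and 1 window each of Tap1 and Psmb9 overlapped one of the other gene. Of the 200 bp windows, 2 overlapped.

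These genes form the antiviral arm of the type I interferon response. Cells that sense viral RNA or bacterial lipopolysaccharide release interferon-β, whose receptor acts through the kinases Jak1 and Tyk2 on a transcription factor complex that contains Stat2 and Irf9, and this complex binds interferon-stimulated response elements in front of its target genes. The products detect foreign nucleic acid, degrade or sequester viral RNA, restrict virus assembly and release, and attach the ubiquitin-like protein encoded by Isg15 to other proteins. In macrophages, lipopolysaccharide reaches this pathway through TLR4 and its adaptor TRIF. H3K27ac, the acetylated form of lysine 27 of histone H3, is found at promoters and enhancers in use, and the enzyme p300 is one of those that deposit it.

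Macrophages were grown from the marrow of C57BL/6 mice (C57BL/6J in the design text) in medium with L-cell supernatant as the source of M-CSF, replated, and starved of serum overnight in all groups. They then received vehicle (PBS), 3'-sialyllactose (3'SL, a sialylated oligosaccharide of human milk) at 100 µg/ml, lipopolysaccharide (LPS, a component of bacterial outer membranes that activates TLR4) at 10 ng/ml, or both agents together, for 2 h or 6 h. H3K27ac and p300 were profiled by chromatin immunoprecipitation and sequencing (ChIP-seq) in 15 and 14 libraries. Each group is analysed with n = 2, except the vehicle groups of H3K27ac at 6 h and of p300 at both times, for which the single library of replicate 2 was used. The labels list replicate 1 samples of these groups too, and they were not analysed here, since no column name in the tables matched them. The labels do not say whether the replicates were separate animals or cultures, so p-values measure only the spread between these libraries, which may be technical. The comparison of 3'SL with LPS against LPS addresses whether the milk sugar alters the chromatin response to LPS.

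Several labels conflicted. For H3K27ac replicate 1, the libraries titled 2 h of LPS, 3'SL or both agents have a treatment field that reads 1 h. The replicate 2 H3K27ac libraries of both agents carry source names of input chromatin, and that of 2 h also carries a vehicle treatment field. The titles were followed. The share of tags inside the windows was 76.8% and 73.2% in these last libraries, against 8.65% to 8.85% in input chromatin. Results that rest on these libraries are given with and without them.

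Libraries held 4200716 to 39597624 tags for H3K27ac and 3199270 to 18130439 for p300. The replicates stood apart: windows held 53.9% to 64.8% of the H3K27ac tags in replicate 1 and 72.4% to 79.3% in replicate 2, and 6.12% to 9.42% against 20.1% to 27.5% of the p300 tags, with 4.77% in the p300 input. Values below are therefore normalised tags, that is, tags per 10000000 rescaled to the tags in the genes tested. Of 8 macrophage markers all had regions, with a summed H3K27ac level of 13158 to 20195 normalised tags per library. T-cell markers summed to 186 to 593 over all libraries (299 to 459 with PBS and 241 to 313 with LPS at 2 h), and Cd3e, Cd3g and Lck had no region. Summed neutrophil, dendritic cell and fibroblast markers spanned 31.4 to 175, 490.1 to 1445 and 4.09 to 38.4 over all libraries. Of all markers 1 was called at 2 h of LPS, the dendritic cell gene Xcr1 in p300 (log2 change 1.95, SE 0.42, adjusted p = 0.0406 by limma), and without either LPS library it was not called (adjusted p = 0.084 and 0.158). The part of other cells in the results was not tested.

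The response element was searched in its core form, GAAA followed by any 2 bases and a further GAAA, on both strands and counting overlapping matches. RefSeq promoters (250 bases upstream of a start, build GRCm38.p6) were matched for 27 of the 37 genes, and 9 of these 27 (33.3%) held the core, against 3.46% of the 27025 genes with a promoter. Other elements searched were more frequent in these promoters too, with shares given below. Of the 12 members whose value in every library is given below, those with the core are shown first, with the core in capitals, on the strand of the gene. The promoters are at chr1:174031756-174032005 (Ifi205), chr19:34583279-34583528 (Ifit3), chr4:156200819-156201068 (Isg15) and chr7:104465194-104465443 (Trim30a). The match nearest the start began 134 bases before it in Ifi205, 122 in Ifit3, 66 in Isg15 and 36 in Trim30a. Another listed promoter of Trim30a (chr7:104446126-104446375) holds 0 matches and is not shown.
Ifi205 promoter: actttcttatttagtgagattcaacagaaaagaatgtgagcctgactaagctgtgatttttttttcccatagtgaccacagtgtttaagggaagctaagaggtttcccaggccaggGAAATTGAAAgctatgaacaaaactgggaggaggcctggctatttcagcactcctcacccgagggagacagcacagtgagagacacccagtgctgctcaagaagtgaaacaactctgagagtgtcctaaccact
Ifit3 promoter: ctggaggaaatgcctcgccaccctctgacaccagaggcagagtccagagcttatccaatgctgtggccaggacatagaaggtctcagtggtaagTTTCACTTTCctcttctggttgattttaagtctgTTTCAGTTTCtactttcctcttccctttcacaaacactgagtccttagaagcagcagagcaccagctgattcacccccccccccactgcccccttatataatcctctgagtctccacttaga
Isg15 promoter: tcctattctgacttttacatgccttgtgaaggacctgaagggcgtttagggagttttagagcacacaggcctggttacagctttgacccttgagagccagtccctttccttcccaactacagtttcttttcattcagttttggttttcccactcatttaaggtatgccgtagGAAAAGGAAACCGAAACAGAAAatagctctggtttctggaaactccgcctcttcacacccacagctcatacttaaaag
Trim30a promoter: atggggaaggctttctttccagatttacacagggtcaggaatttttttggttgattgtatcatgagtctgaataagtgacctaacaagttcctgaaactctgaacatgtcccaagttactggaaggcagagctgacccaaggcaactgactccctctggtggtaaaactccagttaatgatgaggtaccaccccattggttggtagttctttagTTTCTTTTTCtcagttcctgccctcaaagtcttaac

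In Isg15 the 3 matches overlap into a single run, and in Ifit3 there are 2 separate matches that lie on the other strand and so read as TTTC on the strand shown. For contrast, the promoters of Herc6 (chr6:57580742-57580991) and Xaf1 (chr11:72301379-72301628) hold no match to these letters, although H3K27ac around both genes rose under LPS. An open region in the first intron of Herc6, 450 bp downstream of the start (chr6:57581342-57581542), does hold 2 matches, whereas the single open region of Xaf1 holds 0.
Herc6 promoter: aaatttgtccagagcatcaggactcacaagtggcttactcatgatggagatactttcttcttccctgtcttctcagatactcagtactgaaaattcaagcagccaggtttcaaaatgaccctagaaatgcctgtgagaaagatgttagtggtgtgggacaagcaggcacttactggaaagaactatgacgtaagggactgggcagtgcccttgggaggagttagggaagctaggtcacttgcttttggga
Xaf1 promoter: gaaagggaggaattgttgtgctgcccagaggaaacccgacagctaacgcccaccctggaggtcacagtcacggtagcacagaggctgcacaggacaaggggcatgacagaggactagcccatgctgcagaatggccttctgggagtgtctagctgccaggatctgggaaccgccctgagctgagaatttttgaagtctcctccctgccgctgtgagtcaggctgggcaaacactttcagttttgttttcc

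Promoters of the other matched members with the core were those of Bst2, Ifit1, Oas1a, Oas3 and Rsad2. Open regions can hold the core too. Shown next are the start-proximal region of Zbp1 (chr2:173218923-173219122), an intergenic region 17011 bp downstream of the start of Rsad2 (chr12:26439341-26439541) and one in the first intron of Parp14 (chr16:35869129-35869329), since the p300 results below turn on these genes. They were read from GRCm38 (mm10) on the minus strand, which is that of the genes, and the region of Zbp1 holds 4 matches, that of Rsad2 2 and that of Parp14 1.
Zbp1 region: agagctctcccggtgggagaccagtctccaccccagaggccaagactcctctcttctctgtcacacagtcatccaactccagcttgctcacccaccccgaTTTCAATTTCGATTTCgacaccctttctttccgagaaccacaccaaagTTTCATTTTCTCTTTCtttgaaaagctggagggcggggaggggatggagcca
Rsad2 region: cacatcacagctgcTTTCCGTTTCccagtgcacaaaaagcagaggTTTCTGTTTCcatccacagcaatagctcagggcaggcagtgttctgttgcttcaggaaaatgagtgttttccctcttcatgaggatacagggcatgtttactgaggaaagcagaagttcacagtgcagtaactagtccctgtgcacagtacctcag
Parp14 region: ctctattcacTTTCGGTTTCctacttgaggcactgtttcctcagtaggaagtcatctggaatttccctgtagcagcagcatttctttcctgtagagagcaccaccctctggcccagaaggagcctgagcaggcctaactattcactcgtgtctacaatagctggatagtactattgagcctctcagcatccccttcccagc

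After 2 h of LPS, H3K27ac lay above vehicle for all 37 genes, and 15 rose at an adjusted p under 0.05 (limma, Benjamini-Hochberg over 16710 genes). None fell. Over all genes, 2.84% were called higher and 3.02% lower. The members' median log2 change was 2.00, with a range of 0.34 (Ifit1) to 4.38 (Ifi205), and the median of all genes was -0.01. In all 37 both LPS libraries were above both PBS libraries, which held for 22.4% of all genes. The 15 called genes were the sensors Ifih1, Dhx58 and Zbp1, the OAS-like gene Oasl1, the effectors Isg20, Bst2, Xaf1, Ifi35 and Ifi205, the ubiquitin-like and PARP genes Isg15, Herc6, Trim30a, Parp14 and Dtx3l, and the immunoproteasome gene Psmb8.

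The size of the response differed between the replicates. The members' median difference between LPS and PBS was 2.86 in replicate 1 (0.58 to 4.91) and 1.29 in replicate 2 (0.02 to 3.85), and the difference was larger in replicate 1 for 37 of 37 genes. The median of all genes was -0.09 and 0.04. In normalised tags, the median member held 136 and 240.0 with PBS (replicate 1, then replicate 2, the order used throughout), and 1038 and 563 with LPS. The vehicle library of replicate 1 was thus the lower of its pair, and the LPS library of replicate 1, whose treatment field reads 1 h, was the higher. Calls depended on these libraries: without LPS replicate 1, 0 genes were called by limma (median 1.53), without PBS replicate 1, 0, without PBS replicate 2, 2, and without LPS replicate 2, 10. DESeq2 on the recovered tags called 31 and edgeR 14, and an unadjusted p under 0.05 was reached by 33. With the replicate number added to the fit as a block, limma called 32, where 10.3% of all genes were called higher. Genes said below not to pass did not do so in the fit without this block.

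**Figure D1:**
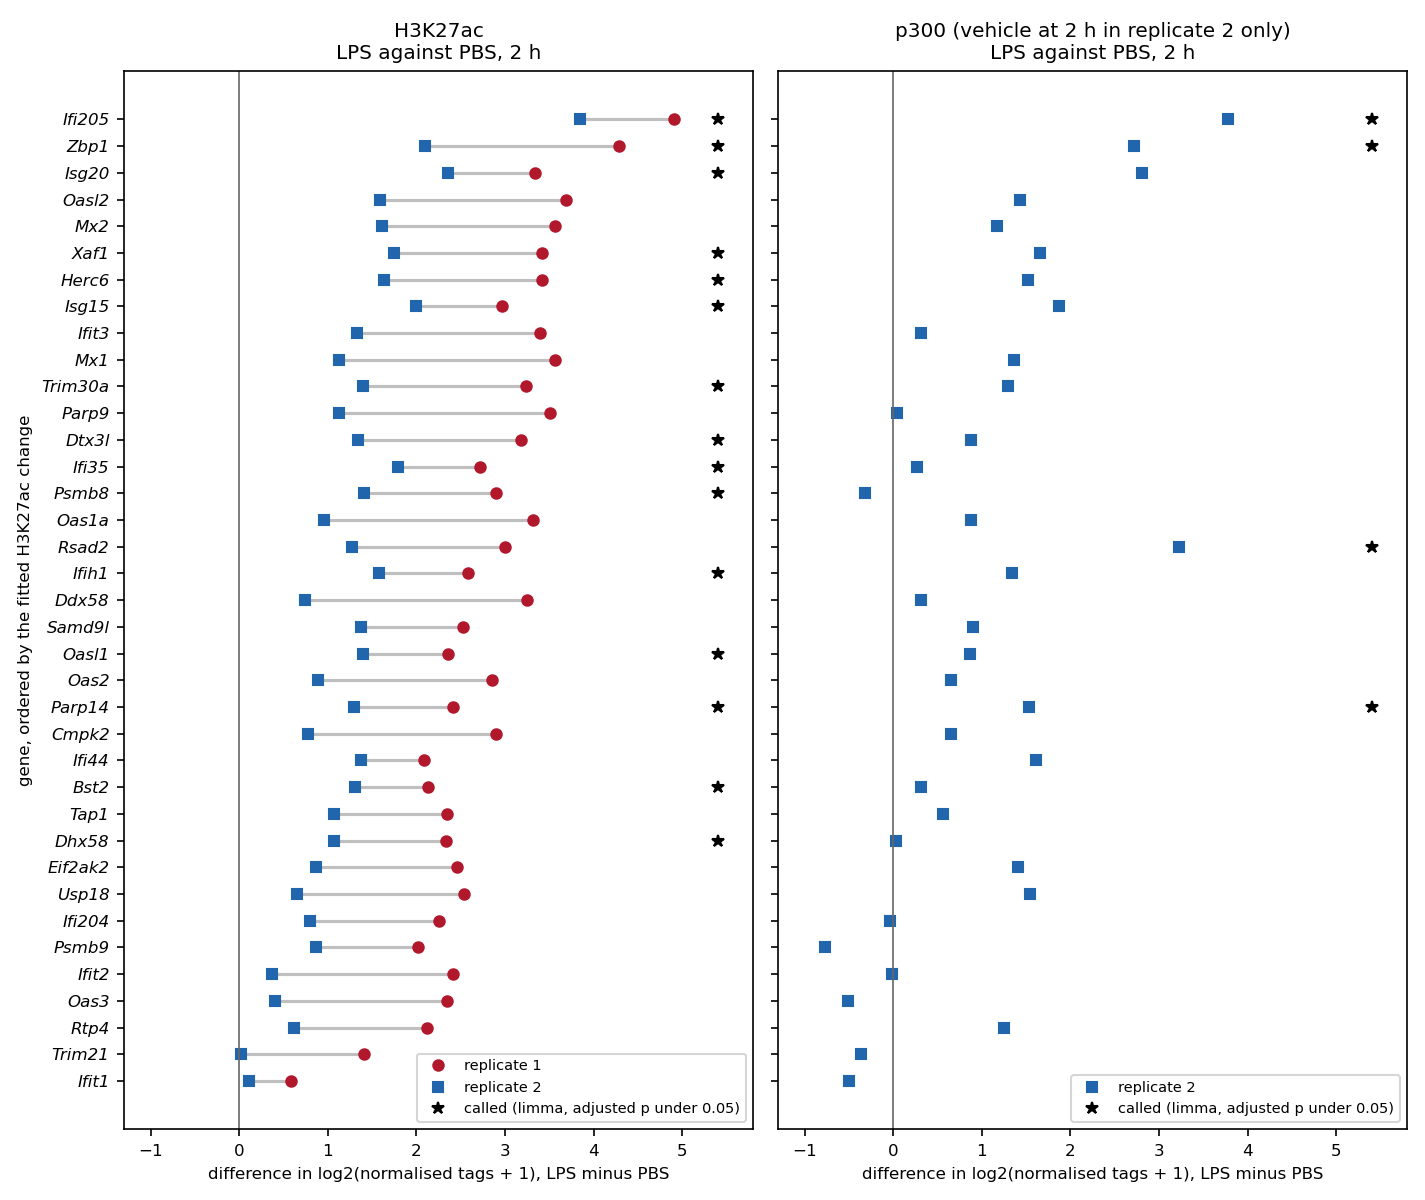
Difference between LPS and PBS at 2 h on the log2(normalised tags + 1) scale (horizontal) for each of the 37 genes (vertical, ordered by fitted H3K27ac change), within replicate 1 and replicate 2 for H3K27ac and within replicate 2 for p300, where no replicate 1 vehicle library was analysed. Stars mark genes called by limma. Every H3K27ac point lies above 0, with replicate 1 to the right of replicate 2 in each gene.

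Among the 5 sensors of foreign nucleic acid, 3 rose at 2 h and the median log2 change was 2.00. Zbp1, which binds Z-form nucleic acids and can start cell death, held 68.9 and 129 normalised tags of H3K27ac with PBS at 2 h and 106 in the single PBS library of 6 h. With LPS it held 1360.4 and 553 at 2 h and 1359.9 and 1088 at 6 h. All 4 LPS libraries were above the 3 of PBS, and the rise at 2 h passed the limma test (log2 change 3.19, SE 0.55, adjusted p = 0.0098; without 1 of the 4 libraries log2 change 2.54 to 3.84, adjusted p = 0.0215 to 0.0832). Within replicates 1 and 2 the difference was 4.28 and 2.09. With 3'SL alone Zbp1 held 52.2 and 105 at 2 h and 81.0 and 139 at 6 h, and with both agents 821 and 354 and then 1149.8 and 926. The 3'SL libraries thus lay in or near the range of PBS, and those of both agents were on the side of LPS.

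Ifih1 encodes a helicase that detects long duplex RNA. It held 258 and 340.1 normalised tags with PBS at 2 h, 361 at 6 h, and 1551 and 1015 and 1057 and 838 with LPS at 2 h and at 6 h. It rose at 2 h (log2 change 2.08, SE 0.36, adjusted p = 0.0102 by limma; without 1 library log2 change 1.77 to 2.39, adjusted p = 0.0293 to 0.088), by 2.58 and 1.58 within the replicates. The groups did not overlap at either time. Over the regions of transcription factors in place of open chromatin the change of Ifih1 turned to -0.04. With 3'SL it held 235 and 375 at 2 h and 281 and 329 at 6 h, and with both agents 1433 and 776 and 1088 and 753. Dhx58, a helicase that modulates the other RNA sensors, held 225 and 269.6 with PBS at 2 h, 274 at 6 h, 1143 and 566 with LPS at 2 h and 1019 and 999 at 6 h. Its rise at 2 h also passed (log2 change 1.70, SE 0.39, adjusted p = 0.0318 by limma; without 1 library log2 change 1.20 to 2.21, adjusted p = 0.0334 to 0.223), with 2.34 and 1.07 within the replicates. In the 3'SL libraries Dhx58 held 202 and 306 and 222 and 285, and with both agents 899.7 and 431 and 902 and 921. The helicase gene Ddx58, the sensor of RNA with a triphosphate end, had a log2 change of 2.00 (adjusted p = 0.0956 by limma) and Eif2ak2, the kinase that halts translation on duplex RNA, one of 1.66 (adjusted p = 0.0905), so neither passed.

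The OAS family makes oligoadenylates that activate RNase L, or encodes relatives without that activity, and 1 of its 5 members rose, with a median log2 change of 1.87. Oasl1, a relative that acts on translation, held 120.0 and 214 normalised tags with PBS at 2 h, 255 at 6 h, and 619.6 and 564 and 463 and 755 with LPS at 2 h and at 6 h. The LPS libraries were above those of PBS at both times (log2 change 1.87, SE 0.48, adjusted p = 0.0449 at 2 h by limma; without 1 library log2 change 1.46 to 2.29, adjusted p = 0.0983 to 0.211; 2.36 and 1.39 within the replicates). With 3'SL it held 98.1 and 211 and 130.1 and 275, and with both agents 425 and 329.6 and 446 and 711. The other members had changes from 1.37 (Oas3) to 2.64 (Oasl2) with adjusted p from 0.0612 to 0.28, so none of them passed. Oasl2 illustrates the spread between the replicates: PBS at 2 h gave 72.8 and 234 and LPS 954 and 704.

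None of the 3 IFIT genes, whose products bind viral RNA ends, was called, at a median log2 change of 1.39. Ifit3 held 86.6 and 99.1 normalised tags with PBS at 2 h, 110.4 at 6 h, 924 and 250.5 with LPS at 2 h and 639 and 334 at 6 h. The groups did not overlap, but the 2 LPS libraries of 2 h lay far from each other (log2 change 2.36, SE 0.78, adjusted p = 0.111 by limma; 3.40 and 1.33 within the replicates). In the 3'SL libraries Ifit3 held 51.3 and 105 and 84.6 and 99.9, and with both agents 710.5 and 133 and 609.9 and 339. Ifit1, named here because it had the smallest change of the 37, held 26.6 and 26.6 with PBS and 40.2 and 28.7 with LPS at 2 h (log2 change 0.34, SE 0.49, adjusted p = 0.79 by limma). None of its 8 regions lay at its start: the nearest was 10503 bp away, whereas 34 of the 37 genes had a region within 1 kb. Its value therefore describes intergenic and intronic chromatin downstream of the start, and the promoter of Ifit1, which holds the core of the response element, was not measured.

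Of the 13 other effectors 5 rose, with a median log2 change of 2.13. Ifi205, of the family of interferon-inducible nuclear DNA sensors, had a single region and the largest change of the 37. It held 13.8 and 4.09 normalised tags with PBS at 2 h and 2.67 at 6 h, against 442 and 72.3 with LPS at 2 h and 309 and 135 at 6 h. The libraries without LPS held few tags and every LPS library was above them (log2 change 4.38, SE 0.98, adjusted p = 0.0268 at 2 h by limma; without 1 library log2 change 3.08 to 5.67, adjusted p = 0.029 to 0.198; 4.91 and 3.85 within the replicates). At 6 h the vehicle library had 3 tags and the LPS libraries 514, a ratio of 92.6 after scaling (exact 95% interval of counting error 31.5 to 450). With 3'SL Ifi205 held 7.20 and 9.30 at 2 h and 19.5 and 8.33 at 6 h, and with both agents 299 and 54.9 and 247 and 121.

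Isg20, an exonuclease that degrades single-stranded RNA, held 58.1 and 31.7 with PBS at 2 h, 57.9 at 6 h, 599 and 167 with LPS at 2 h and 393 and 355 at 6 h. Every LPS library exceeded every vehicle library (log2 change 2.85, SE 0.68, adjusted p = 0.0349 at 2 h by limma; without 1 library log2 change 1.93 to 3.77, adjusted p = 0.0333 to 0.246; 3.34 and 2.36 within the replicates). Isg20 held 59.4 and 47.8 and 54.2 and 72.8 with 3'SL, and 423 and 97.9 and 344 and 265 with both agents. Xaf1, which promotes apoptosis, gave 64.0 and 88.9 with PBS at 2 h, 88.1 at 6 h, 695 and 300.3 with LPS at 2 h and 506 and 287 at 6 h. Here too the groups were apart (log2 change 2.58, SE 0.62, adjusted p = 0.036 at 2 h by limma; without 1 library log2 change 1.98 to 3.19, adjusted p = 0.0567 to 0.247; 3.42 and 1.75 within the replicates). Xaf1 held 47.7 and 83.7 and 81.0 and 97.8 with 3'SL, and 568 and 151 and 492 and 264 with both agents. The other called effectors were Bst2, the tether that holds budding virions (log2 change 1.72, SE 0.30, adjusted p = 0.0102 by limma; without 1 library log2 change 1.49 to 1.94, adjusted p = 0.0362 to 0.0854), and Ifi35 (log2 change 2.26, SE 0.54, adjusted p = 0.0356; without 1 library log2 change 1.70 to 2.82, adjusted p = 0.0526 to 0.247). Mx1 and Mx2, the dynamin-like GTPases, had changes of 2.35 and 2.59 that did not pass (adjusted p = 0.0634 and 0.0517 by limma), nor did Rsad2, an enzyme that makes a chain-terminating nucleotide (2.13, adjusted p = 0.0839), or its neighbour Cmpk2 (1.84, adjusted p = 0.166). The remaining changes were 1.95 for Samd9l, 1.73 for Ifi44, 1.52 for Ifi204 and 1.37 for Rtp4.

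Of the 8 ubiquitin-like and PARP genes 5 rose, with a median log2 change of 2.29. Isg15 encodes the ubiquitin-like modifier itself and had a single region. It held 71.8 and 101 normalised tags with PBS at 2 h, 113 at 6 h, 569 and 405 with LPS at 2 h and 408 and 311 at 6 h. The vehicle libraries were the low ones throughout (log2 change 2.48, SE 0.44, adjusted p = 0.0112 at 2 h by limma; without 1 library log2 change 2.24 to 2.72, adjusted p = 0.0426 to 0.0919; 2.97 and 1.99 within the replicates). Isg15 held 51.3 and 123 and 69.4 and 133 with 3'SL, and 475 and 307 and 357 and 336 with both agents. Herc6, the ligase that attaches the Isg15 product in the mouse, held 157 and 287 with PBS at 2 h, 254 at 6 h, 1697 and 895 with LPS at 2 h and 1130.0 and 551 at 6 h. The LPS libraries were higher in both replicates (log2 change 2.53, SE 0.53, adjusted p = 0.0216 at 2 h by limma; without 1 library log2 change 2.07 to 2.99, adjusted p = 0.0475 to 0.162; 3.42 and 1.64 within the replicates). Herc6 held 142 and 281 and 225 and 316 with 3'SL, and 1428 and 694 and 1049 and 643 with both agents.

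Trim30a, a ubiquitin ligase that dampens Toll-like receptor signalling, summed 10 regions and held 807 and 1453 with PBS at 2 h, 1579 at 6 h, 7647 and 3821 with LPS at 2 h and 4198 and 2816 at 6 h. Every LPS library was above every PBS library (log2 change 2.32, SE 0.56, adjusted p = 0.0357 at 2 h by limma; without 1 library log2 change 1.82 to 2.82, adjusted p = 0.0612 to 0.239; 3.24 and 1.39 within the replicates). Trim30a held 833 and 1674 and 862 and 1690.1 with 3'SL, and 6267 and 2547 and 4032 and 2756 with both agents. Parp14, an ADP-ribosyltransferase, went from 613 ± 243 to 2140.1 ± 312 (SD, n = 2 each) and passed (log2 change 1.85, SE 0.41, adjusted p = 0.0252 by limma; without 1 library log2 change 1.44 to 2.27, adjusted p = 0.0636 to 0.154), as did Dtx3l, the ligase that partners with Parp9, from 314 ± 136 to 1513 ± 665 (log2 change 2.26, SE 0.50, adjusted p = 0.0263; without 1 library log2 change 1.80 to 2.72, adjusted p = 0.0494 to 0.19). Parp9 itself (2.32, adjusted p = 0.0726 by limma) and Usp18, the protease that removes the Isg15 product (1.60, adjusted p = 0.085), did not pass. Trim21, an antibody receptor in the cytosol, was among the least changed: 136 and 240.0 with PBS and 363 and 243 with LPS at 2 h (log2 change 0.71, SE 0.45, adjusted p = 0.446 by limma).

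Among the 3 antigen processing genes Psmb8, a catalytic subunit of the immunoproteasome, was called. It held 121 and 183 normalised tags with PBS at 2 h, 200.3 at 6 h, 908 and 487 with LPS at 2 h and 552 and 341 at 6 h. LPS libraries were above vehicle at both times (log2 change 2.15, SE 0.44, adjusted p = 0.0193 at 2 h by limma; without 1 library log2 change 1.70 to 2.60, adjusted p = 0.0375 to 0.15; 2.90 and 1.41 within the replicates). Psmb8 held 140.3 and 173 and 132 and 177 with 3'SL, and 690.3 and 367 and 495 and 269 with both agents. The peptide transporter gene Tap1 (1.71, adjusted p = 0.0516 by limma) and the other subunit gene Psmb9 (1.44, adjusted p = 0.0603) did not pass, and a 1000 bp window of each of these neighbours overlaps one of the other.

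**Figure D2:**
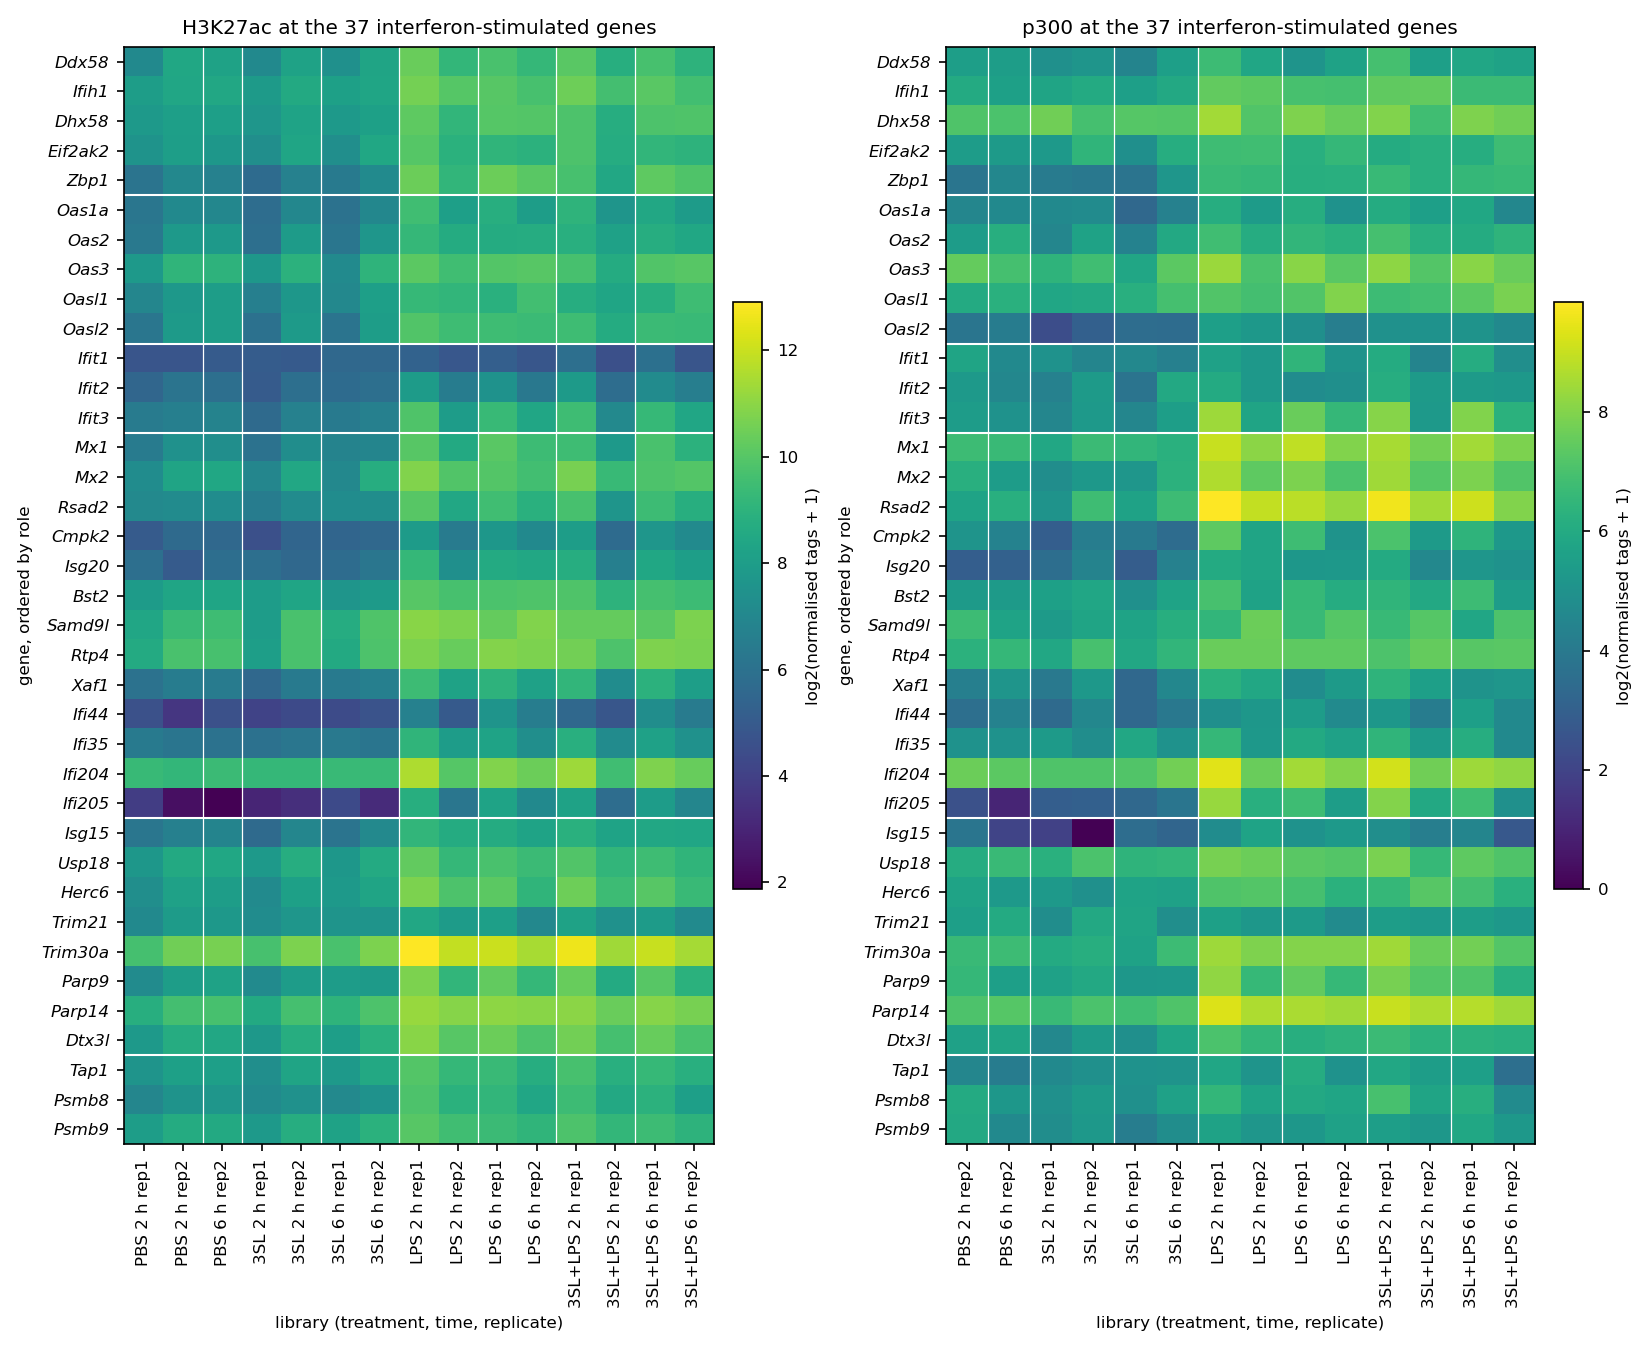
Level of each of the 37 genes (rows, by role) in each library (columns, by group and replicate) as log2(normalised tags + 1), for H3K27ac on the left and p300 on the right. Libraries with LPS, alone or with 3'SL, are the brighter columns of the H3K27ac panel. Their median member is at 393 to 1038 normalised tags, against 136 to 254 in libraries without LPS.

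After 6 h of LPS, 35 of the 37 genes were still above vehicle in H3K27ac, with a median log2 change of 1.38. The comparison rests on a single vehicle library, assumed to vary like the other groups, and 1 gene was called, Zbp1 (log2 change 3.51, SE 0.67, adjusted p = 0.0498 by limma), while 0.425% of all genes were called higher and 0.227% lower. Without LPS replicate 1 or replicate 2 of 6 h it was called no longer (log2 change 3.35 to 3.68, adjusted p = 0.172 to 0.197). Within replicate 2, the only pair of libraries, the members' median was 1.22. The 2 genes below 0 were Trim21 (-0.18) and Ifit1 (-0.04), and an unadjusted p under 0.05 was reached by 15. DESeq2 called 6 and edgeR 0, and limma with the replicate block called 7, where 3.94% of all genes were called higher.

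Between 2 h and 6 h of LPS 0 members were called by limma in either mark (0 at an unadjusted p under 0.05, 0 by edgeR and 0 by DESeq2). Of all genes limma called 0%, while DESeq2 called 112 higher and 21 lower in H3K27ac and 0 in p300. The median change from 2 h to 6 h was -0.25 in H3K27ac and -0.25 in p300. Within replicate 1 the H3K27ac median was -0.52, with 34 of 37 genes lower at 6 h, and within replicate 2 it was 0.03, with 21 of 37 higher. Leaving out single libraries moved it from -0.78 to 0.16. For p300 the medians within the replicates were -0.51 and -0.20. The LPS response at 6 h against that at 2 h, tested as an interaction, gave 0 called members in both marks.

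p300 moved less uniformly. After 2 h of LPS 34 of the 37 genes were above the single vehicle library, with a median log2 change of 1.25 (all genes 0.00), and 4 rose by limma, against 1.17% of all genes: Rsad2, Zbp1, Ifi205 and Parp14. Within replicate 2 the members' median was 0.88. Of the 4, all except Rsad2 were also called in H3K27ac, where Rsad2 lay above vehicle but did not pass. With the replicate block limma called 11 members, against 5.70% of all genes called higher. Calls depended on the tool and the libraries: edgeR called 0, 15 had an unadjusted p under 0.05, and without LPS replicate 1 or replicate 2 limma called 0 and 1. In replicate 1 the 3'SL libraries held a median of 13.8 deposited tags per 10000000 at these genes, against 14.6 in the p300 input. The LPS libraries of that replicate held 60.6 and 31.7, so the signal without LPS was close to that of input there. On the simulated p300 tags described below, limma called 80 unchanged genes, 6 of them with a mean of at least 50 tags. Whether any of the 4 calls is of this kind was not tested.

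Rsad2 held 51.1 normalised p300 tags with PBS at 2 h and 73.4 at 6 h. With LPS it held 917 and 487 at 2 h and 454 and 315 at 6 h (log2 change 3.68, SE 0.76, adjusted p = 0.0349 at 2 h by limma; without 1 LPS library log2 change 3.23 to 4.18, adjusted p = 0.0651 to 0.174), and the 3'SL libraries gave 32.4 and 109 and 49.3 and 105. All LPS libraries were far above the others, including those of both agents (798 and 358 and 544 and 248). Zbp1 held 13.3 and 22.7 with PBS at 2 h and 6 h, and 99.7 and 93.0 and 71.2 and 73.5 with LPS (log2 change 2.76, SE 0.58, adjusted p = 0.0361 at 2 h by limma; without 1 LPS library log2 change 2.72 to 2.85, adjusted p = 0.117 to 0.151). Its replicates lay close together, unlike those of Ifi205, which held 4.44 with PBS and 321 and 73.5 with LPS at 2 h. For Ifi205 the vehicle library had 2 tags and the LPS libraries 285, a scaled ratio of 44.5 (exact 95% interval of counting error 12.2 to 369; log2 change 4.83, SE 1.04, adjusted p = 0.0408 by limma; without 1 LPS library log2 change 3.79 to 5.92, adjusted p = 0.0467 to 0.214). Parp14 held 135 and 152 with PBS and 645 and 393 and 380.3 and 344 with LPS at 2 h and 6 h (log2 change 1.89, SE 0.43, adjusted p = 0.0498 at 2 h by limma; without 1 LPS library log2 change 1.53 to 2.28, adjusted p = 0.0602 to 0.22). The next smallest adjusted p was that of Isg20 (0.0847 by limma), whose vehicle library had 3 tags. The 3 genes below 0 were Psmb9 (-0.52), Ifit1 (-0.32) and Trim21 (-0.17).

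At 6 h of LPS 0 members were called in p300 by limma (0.175% of genes were called higher and 0.0125% lower), with 13 at an unadjusted p under 0.05, 0 by edgeR and 1 by DESeq2. With the replicate block limma called 6 members, against 2.20% of all genes called higher. The median log2 change without the block was 1.02 and 34 genes were above 0. The authors' own scaling, to all mapped tags, moved the median of all p300 genes to -0.73 at 2 h and -1.04 at 6 h, and that of the members to 0.49 and -0.03, so the members' changes in p300 are relative to all genes.

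3'SL alone called 0 members by limma in H3K27ac at 2 h or 6 h and in p300 at 2 h or 6 h (edgeR 0 in each), with 0, 0, 1 and 1 at an unadjusted p under 0.05. In all genes, 0% were called higher in H3K27ac at either time, and 0.0376% in p300 at 2 h, where 0.0145% of regions were called higher. The members' median log2 change was -0.06 and -0.19 in H3K27ac and -0.35 and -0.08 in p300, at 2 h and 6 h. Within replicate 1 of H3K27ac at 2 h the median was -0.22 and within replicate 2 it was 0.03. Under the authors' scaling the H3K27ac median at 2 h was 0.07. Without single libraries the medians ran from -0.58 to 0.34 and from -0.42 to 0.10 in H3K27ac. In p300 they ran from -0.57 to -0.08 and from -0.32 to 0.15. Their sign was thus not stable except in p300 at 2 h. There the vehicle was the single library of replicate 2, so only 3'SL libraries could be left out. Without 3'SL replicate 1 that median was -0.08, with 15 of 37 genes above 0. In the median member, PBS libraries of 2 h held 136 and 240.0 normalised tags of H3K27ac and 3'SL libraries 138 and 239.6. These comparisons share the PBS libraries with those of LPS.

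When LPS was given together with 3'SL, 0 members differed from LPS alone by limma in either mark at either time, also with 0 at an unadjusted p under 0.05 and 0 by edgeR, and 0% of genes were called lower in H3K27ac at 2 h. The direction in H3K27ac at 2 h was nearly uniform: 36 of 37 genes were below 0, and Ifit1 (0.12) was the exception. The median log2 change was -0.41 (range -0.69 to 0.12, all genes 0.00). All genes were read from the same libraries, so they are not independent observations of an effect of 3'SL. Within replicate 1 the median was -0.29 with 35 genes below 0, within replicate 2 it was -0.48 with 37 below 0, and 35 were below 0 in both, against 26.1% of all genes. The medians of the libraries in normalised tags were 1038 and 563 with LPS and 823 and 393 with both agents. The groups overlapped for most genes, since the spread between replicates exceeded the difference. Both libraries with 3'SL were below both LPS libraries in 2 genes, Oasl1 and Samd9l. This order was not more frequent among the 37 genes than over all genes, where 7.76% had it.

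For Oasl1 the LPS libraries held 619.6 and 564 normalised tags and those of both agents 425 and 329.6 (log2 change -0.66, SE 0.48, adjusted p = 1 by limma). Samd9l, which inhibits translation in infected cells, went from 1819 ± 182 to 1267 ± 1.28 (n = 2 each, with the SD; log2 change -0.52, SE 0.56, adjusted p = 1). By role, the medians ran from -0.59 in the OAS family and -0.52 in the other effectors to -0.32 in the antigen processing genes. When single libraries were left out, the fitted median moved in both directions, so its sign was not stable. Leaving out a library also leaves unequal mixes of replicates, which differ in level, and the part of this was not tested. Without the library of both agents of replicate 2, whose source and treatment labels conflict with its title, the median was 0.18, and without LPS replicate 1, whose treatment field reads 1 h, it was 0.06. Without either of the other libraries compared it was -0.86 or lower. Within replicate 1 both libraries compared carry the 1 h field. The comparison shares its LPS libraries with that of LPS against PBS.

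At 6 h the H3K27ac median of 3'SL with LPS against LPS was -0.07, within the replicates -0.11 and -0.09, and 23 of 37 genes were below 0 in both, against 29.5% of all genes. Without the replicate 2 library of both agents, whose source label conflicts with its title, the fitted median was 0.19 with 25 of 37 genes above 0, and over the 4 libraries left out in turn it ran from -0.33 to 0.19. In p300 the median was -0.17 at 2 h, with 14 genes below 0 in both replicates against 26.8% of all genes (without single libraries -0.53 to 0.17), and -0.04 at 6 h, with 12 against 26.6% (without single libraries -0.26 to 0.28). The difference between 2 h and 6 h was not tested.

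**Figure D3:**
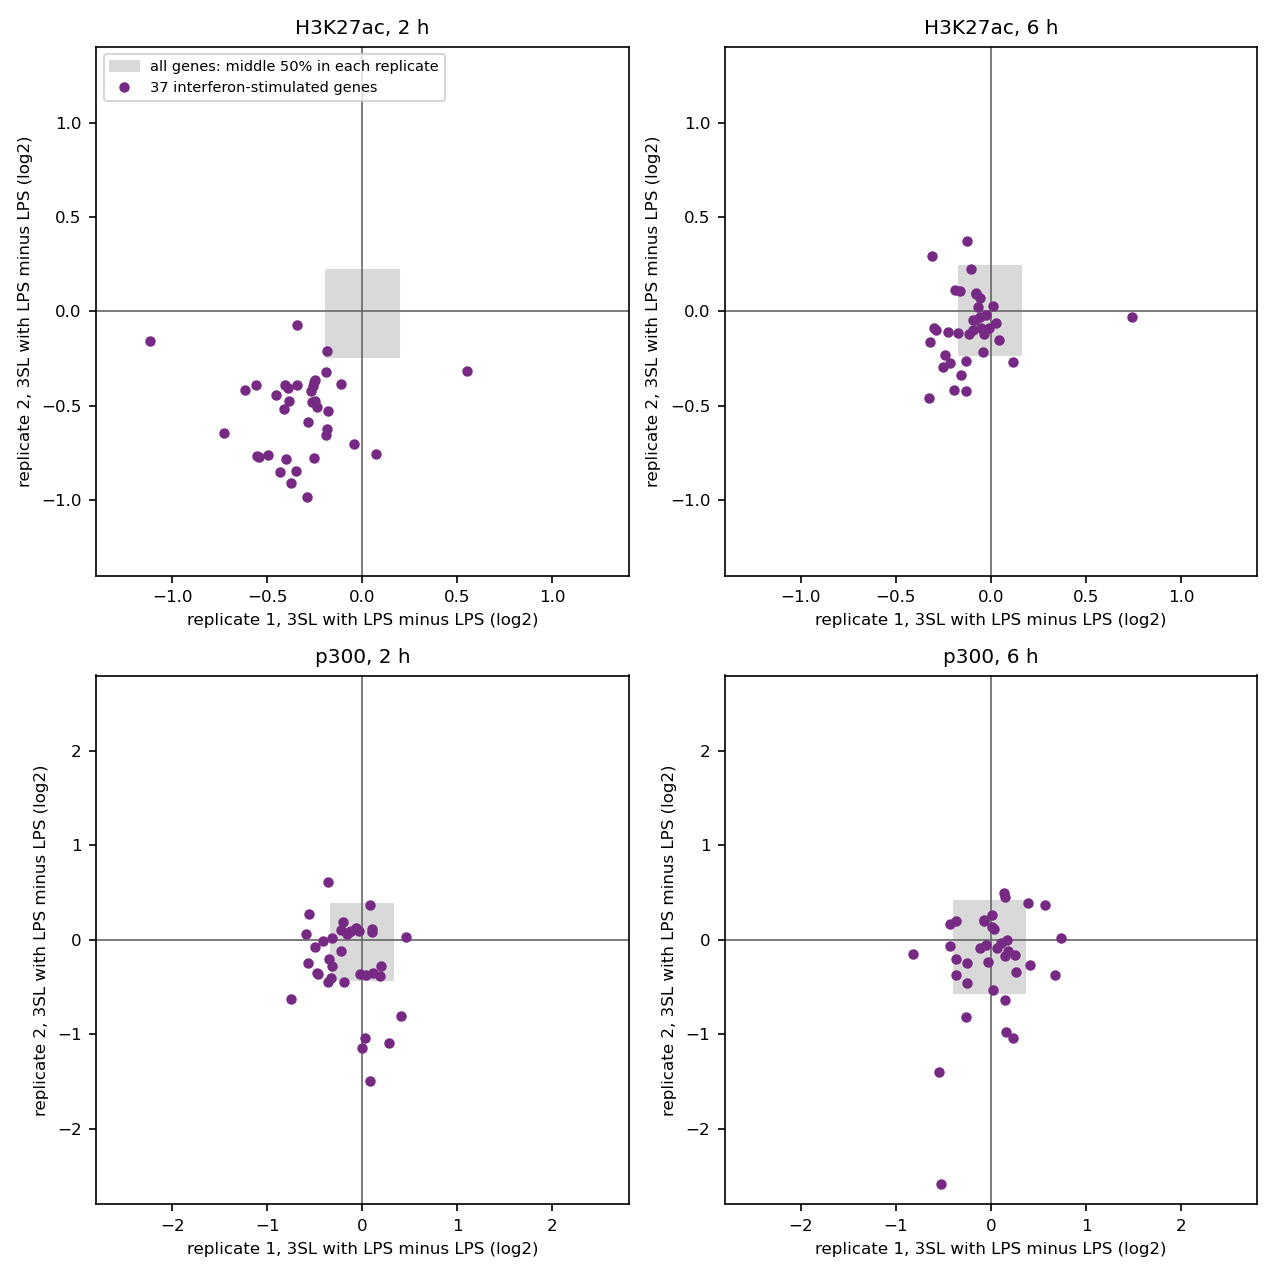
Difference between 3'SL with LPS and LPS for each of the 37 genes on the log2(normalised tags + 1) scale, within replicate 1 (horizontal) and within replicate 2 (vertical), in panels of mark and time, with a grey box for the middle of all genes. In H3K27ac at 2 h 35 genes lie in the lower left, and at 6 h 23 genes do so. In the p300 panels 14 and 12 genes lie there, at 2 h and 6 h.

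At the level of single regions, 42 of the 148 regions of these genes that passed the filter rose in H3K27ac at 2 h of LPS, against 3.08% of all regions (limma, Benjamini-Hochberg over 77387 regions). The rises were concentrated at start sites: 31 of 52 regions within 1 kb of a start were called (median log2 change 2.41, all 52 above 0), 8 of 46 between 1 and 10 kb (median 1.24) and 3 of 50 between 10 and 100 kb (median 0.80). In the deposited annotation 23 of 41 promoter regions, 12 of 47 intronic and 4 of 48 intergenic regions were called. The shares of all regions called in these classes of distance and annotation were not computed. Whether the pattern is particular to these genes was thus not tested. Without single libraries 2 to 20 regions were called. At 6 h 2 were called, both of Zbp1 (0.544% of all regions were called higher and 0.132% lower), and 0 without either LPS library or by edgeR. Overlapping windows share tags, so that neighbouring regions are not independent.

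The region of Ifih1 nearest its start, 114 bp downstream (chr2:62646041-62646241), had a log2 change of 2.37 (adjusted p = 0.0095 by limma). The start-proximal region of Zbp1, whose sequence is shown above, rose by 3.28 (adjusted p = 0.00943) and one in its first intron, 1195 bp downstream, by 3.86 (adjusted p = 0.0179). The intron region of Parp14 shown above rose by 2.91 (adjusted p = 0.00435), more than the promoter of that gene (1.89, adjusted p = 0.0285); this difference was not tested. Of these, the Parp14 intron region overlapped a p65 peak of the merged list from untreated and KLA-treated macrophages of another study.

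For p300 at 2 h, 6 of 133 regions rose, against 2.15% of all 62225 regions tested, 0 by edgeR, and 1 and 3 without a single LPS library. They lay at Ifi205, Parp14 (2 regions), Rsad2 (2 regions) and Usp18. The Rsad2 region shown above, 17011 bp from the start, had 0 tags in the vehicle library and 174 in the LPS libraries, which is at least 18.1-fold higher with a floor of 3 tags for the vehicle library. A region 5492 bp into Usp18 likewise had 0 and 37 tags (at least 3.85-fold higher). The Parp14 intron region rose by 2.94 in p300 (adjusted p = 0.0106), and another intron region of that gene, 27235 bp from the start, had 1 tag with vehicle and 59 with LPS (scaled ratio 18.4, exact 95% interval of counting error 3.18 to 739). The promoter-proximal Ifi205 region, with 2 vehicle tags, is the only region of that gene. With 0 to 2 vehicle tags, these regions of Rsad2, Usp18 and Ifi205 and the 27235 bp region of Parp14 passed the filter on low values through other libraries. Their calls, and that of Ifi205 as a gene, are therefore no independent support for a rise. By distance, 1 of 49 regions within 1 kb, 3 of 38 between 1 and 10 kb and 2 of 46 beyond were called in p300. Shares of all regions by distance were not computed here either. At 6 h 1 region was called, that of Ifi205, against 0.400% of all regions called higher and 0.0225% lower, and 0 by edgeR.

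**Figure D4:**
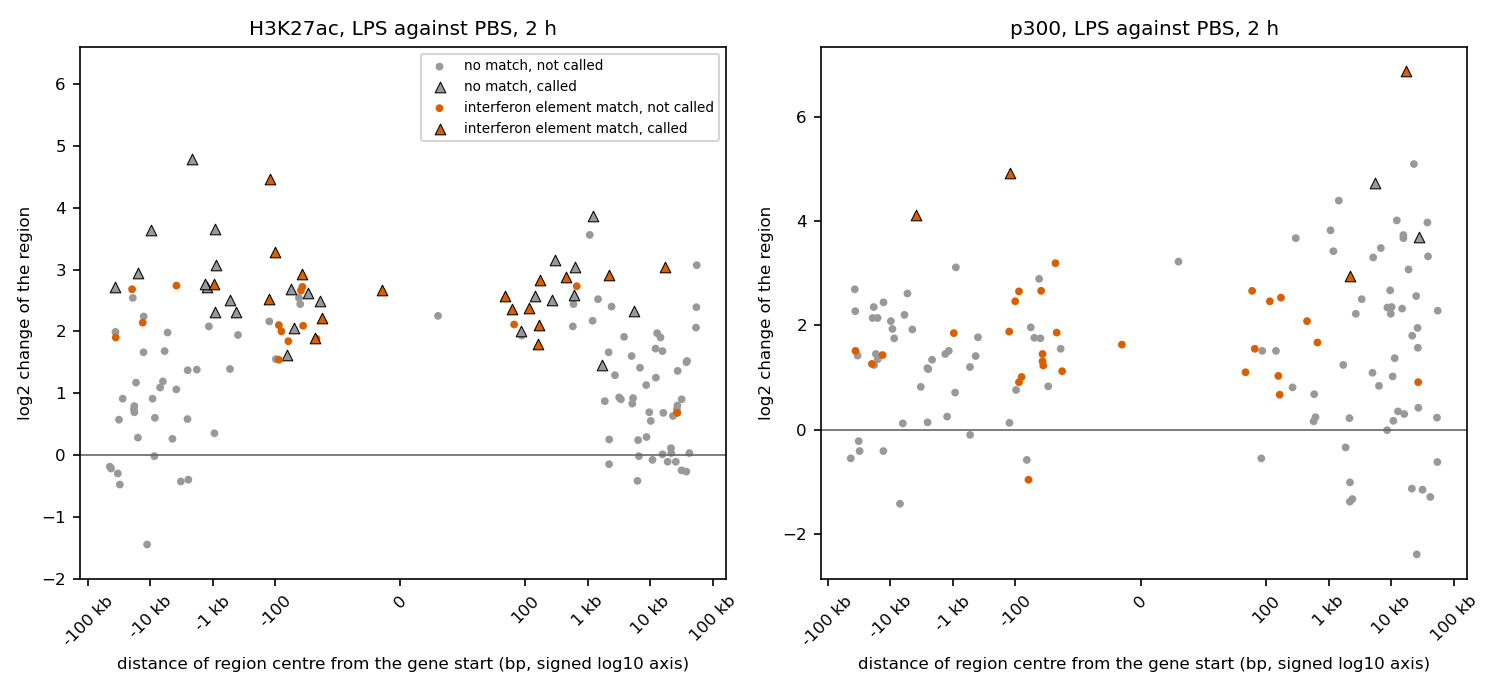
Log2 change with LPS against PBS at 2 h for the tested regions of the 37 genes (vertical), in H3K27ac on the left and p300 on the right, by distance from the start site on a signed log10 scale (horizontal). Orange points hold the core of the response element and triangles mark regions called by limma. In H3K27ac the points within 1 kb all lie above 0, with a median of 2.41, and hold most of the triangles, while in p300 the 6 triangles are spread from 122 bp to beyond 10 kb.

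The core of the response element was more frequent in the regions of these genes than in open chromatin at large. It was in 32 of 170 windows of 200 bp (18.8%), against 3.27% of all 97113, and within 1 kb of a start in 25 of 52 (48.1%), against 2.04% of 20211. Windows called in H3K27ac at 2 h held it in 17 of 42 (40.5%) and the others tested in 15 of 106 (14.2%). Distance from the start differed between these sets too, and its part in this was not tested. Of other elements searched in the same way, the AP-1 element TGANTCA was in 15.9% of the windows against 17.2%, the PU.1 element gaggaagt in 7.65% against 9.70%, the STAT element TTCNNNGAA in 7.65% against 5.73% and the kappaB element (GGGA, any 2 bases, TTCC) in 2.35% against 1.70%. In the promoters of the 27 matched genes these other elements were also more frequent than over all genes with a promoter. The STAT element was in 22.2% against 8.13%, AP-1 in 18.5% against 7.82%, kappaB in 7.41% against 1.36% and PU.1 in 3.70% against 2.79%. Of the 27 genes 6, 5, 2 and 1 held them. A match is a description of letters.

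Peaks in the deposited lists overlapped these regions (by at least 1 bp). LXR peaks overlapped 24.1% of the 170, against 22.5% of all, SREBP peaks 18.8% against 22.2%, and p300 peaks 34.7% against 34.1%. p65 peaks overlapped 5 regions (2.94%, against 1.58%), all of Parp14 and Parp9. LXR and SREBP were profiled after 18 h of the LXR agonist GW3965, without LPS.

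Of 24 genes of the type I interferon pathway and its induction, 23 were tested in H3K27ac. Their median log2 change at 2 h of LPS was 0.79. Against 2.84% of all genes, 5 of the 23 rose. They were the kinase genes Tyk2 (2.54, adjusted p = 0.0155 by limma) and Ikbke (1.41, adjusted p = 0.00519), the transcription factor gene Stat2 (1.90, adjusted p = 0.0161) and the feedback inhibitors Socs1 (1.73, adjusted p = 0.0256) and Socs3 (2.53, adjusted p = 0.0013). Irf9 (1.23, adjusted p = 0.222) and Irf7 (2.38, adjusted p = 0.0741) did not pass, although the change of Irf7 was larger than that of Stat2. With the replicate block Irf7 passed (adjusted p = 0.0123 by limma) and Irf9 did not (adjusted p = 0.062). Differences between these genes were not tested. Whether their changes are linked to those of the antiviral genes was not tested either. Without single libraries 2 to 5 were called: Ikbke and Socs3 each time, and Tyk2 and Stat2 only without LPS replicate 2. The ligand gene Ifnb1 had a change of 1.08 (adjusted p = 0.299), from 0.12 in replicate 2 to 2.03 in replicate 1. The receptor genes Ifnar1 (0.07) and Ifnar2 (-0.23) and Irf3 (-0.07) were near 0. In p300 at 2 h Socs3 was the 1 of 24 that rose, against 1.17% of all genes (3.44, adjusted p = 0.00325 by limma), and Ifnb1 did not pass (1.70, adjusted p = 0.148).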

How the data were processed

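H3K27ac and p300 ChIP-seq libraries were grouped by the labels' titles. The submitters' processing notes name Bowtie2, HOMER, DESeq2 and the build mm10, without versions. The deposited values are HOMER signal: per the file headers, each is a tag count around an open chromatin region that the authors normalised to a library size of 10000000 tags, over 1000 bp for H3K27ac and 200 bp for p300. The regions are ATAC peaks of another study, merged by the authors. The authors' deposited peak lists of LXR, SREBP, p300 and p65 were used as positions. Left out were 10 columns of per-sample values whose names fit no sample's labels.

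Signal times the library total gave whole tags for 100% of values (tolerance 0.05 tags), and the deposited signal was summed per gene over regions within 100 kb of the start. Genes were filtered with edgeR's filterByExpr on these tags, and values were rescaled by the tags in the genes tested times TMM factors. The test was limma (empirical Bayes with a trend, two-sided) on log2(value + 1), fitted to the means of all groups of one mark together, with Benjamini-Hochberg adjustment over all genes and a threshold of 0.05. Changes on this scale understate those of low genes. Intervals for ratios of tags are exact 95% intervals, and these and the floor of 3 tags cover counting error only.

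The members, their roles and the pathway list were chosen with earlier results of these data known. Some marker and pathway genes are not reported here. Values per library are given for 12 members, namely in each role those with the largest H3K27ac change at 2 h of LPS among the called genes or, where none was called, the largest of all. Rsad2, Parp14, Dtx3l, Ifit1, Trim21, Oasl2, Usp18 and Samd9l were singled out after their values were seen. Replicates of a group differed by 10.4 to 77.4 in chi-square per degree of freedom, so none was counted as a duplicate. On simulated tags with 200 changed genes, limma recovered 160 of the 200 in H3K27ac (LPS against PBS at 2 h, 16710 genes: 10 of 50 at 2-fold and 50 of 50 at 4-, 8- and 16-fold) with 12 unchanged genes called. In p300 (15971 genes) it recovered 125 with 80 unchanged genes called, 6 of these with a mean of at least 50 tags, and edgeR recovered 114 with 7 unchanged genes called. The simulated libraries shared a common profile, with a fixed spread and no difference between replicates. The changed genes were drawn only from those with many tags. The replicates of the real data stood apart, so these recoveries do not give the power in these data. Alternatives were the authors' scaling, no filter, a pseudocount of 8, edgeR and DESeq2 on tags, regions within 10 kb, regions of transcription factors, a replicate block and leaving out each library. Versions were R 4.3.3, limma 3.58.1, edgeR 4.0.16, DESeq2 1.42.0 and Python 3.11.15.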

Additional observations from a re-analysis of the deposited data

Results flagged for a closer look

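For 6 combinations of gene and mark, the difference between 3'SL with LPS and LPS alone had one sign in both replicates at 2 h and the other sign in both at 6 h. None of the genes was called at either time, and the difference between the times was not tested. The share of all genes with such a reversal was not computed, so the count is no result about these genes. At each time and in each mark, either sign was shared by both replicates in 24.3% to 29.5% of all genes. Values are log2 differences of normalised tags, replicate 1 and then replicate 2. In H3K27ac, Eif2ak2 gave -0.19 and -0.21 at 2 h, then 0.01 and 0.03 at 6 h. In p300, Dhx58 gave -0.48 and -0.35, then 0.01 and 0.13. Zbp1 gave -0.03 and -0.36, then 0.39 and 0.39. Oasl2 gave -0.57 and -0.24, then 0.15 and 0.45, and Mx2 -0.22 and -0.12, then 0.03 and 0.11. Tap1 moved the other way, with 0.07 and 0.36 at 2 h, then -0.54 and -1.40 at 6 h.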

How the results depend on the processing

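The members' median rise under LPS kept its direction in H3K27ac under all alternatives run. With 15 called at 2 h, limma with a replicate block called 32, edgeR with the block (an alternative chosen after seeing the data) 32, DESeq2 31 and the regions of transcription factors 9, where Ifih1 turned to -0.04. Without single libraries 0 to 10 were called. At 6 h, with 1 called, the block gave 7, edgeR with the block 5, DESeq2 6, and 0 were called under the authors' scaling, without the filter, with edgeR, within 10 kb and on factor regions, and 0 to 0 without single libraries. For p300 at 2 h, with 4 called, the block gave 11, edgeR with the block 9, a pseudocount of 8 gave 2, regions within 10 kb 1, and the authors' scaling and edgeR 0, with 0 to 1 without single libraries. At 6 h, with 0 called, the block gave 6, edgeR with the block 5 and DESeq2 1. Of the members' regions, 42 in H3K27ac at 2 h became 27 under the authors' scaling, 82 with the block and 2 to 20 without single libraries. The 2 at 6 h became 0 with edgeR, 26 with the block and 0 to 0 without single libraries. The 6 in p300 at 2 h became 0 under the authors' scaling and with edgeR, 20 with the block and 1 to 3 without single libraries, and the 1 at 6 h became 0, 0, 8 and 0 to 0. Replicate numbers were not taken to pair the libraries, since there are only 2 and no label ties them. For LPS at 6 h against 2 h in H3K27ac, where limma called 0 of all genes, the block called 343 higher and 65 lower, and edgeR with the block 327 and 69, with 0 of the members in each. The correlation of same-numbered libraries' deviations was 0.45 to 0.70 over 21 pairs of H3K27ac groups and 0.27 to 0.46 over 15 pairs of p300 groups.

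Under the authors' scaling the members' p300 medians were 0.49 and -0.03 for the LPS response at 2 h and 6 h. They were -0.98 and -0.79 for the 3'SL response, and 0.33 when LPS with 3'SL was set against LPS at 6 h. Leaving out single libraries moved the median of LPS at 6 h against 2 h from -0.78 to 0.16 in H3K27ac and from -0.70 to -0.09 in p300, and the p300 median of both agents against LPS at 6 h from -0.26 to 0.28. With all libraries kept, the medians moved by less than the spread between replicates in 121 combinations of comparison and alternative. The cause of these shifts was not tested. Depth is a limit where single vehicle libraries held 1 to 3 tags, at Ifi205 in both marks and at Isg15 and Isg20 in p300, and 0 at some regions.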

Other observations

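A replicate 1 H3K27ac library of PBS has no time in its label and entered no comparison. At the 37 genes the median was 102.7 deposited tags per 10000000, against 114 in the PBS library of 2 h of the same replicate and 271 and 269 in the PBS libraries of 2 h and 6 h of replicate 2. Windows held 42.6% of its tags.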
